A study of Mus musculus with 30 samples.

Results

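The comparison described here sets 3 RNA-seq libraries of KO1, an edited clone of J774A.1 cells, against 9 libraries of the wild-type (WT) clones WT1, WT2 and WT3, all of them untreated. These 12 libraries, with 3 from each clone, were taken by their labels and make up 12 of the 30 libraries of the series. J774A.1 is a mouse macrophage-like cell line. In KO1 and a further clone, KO2, the B2 SINE named B2_Mm2.Dicer1, which lies within Dicer1, was deleted from both alleles with CRISPR, whereas the WT clones were grown from single cells without electroporation, so genotype and editing procedure cannot be told apart between KO1 and WT. KO1 is 1 clone, so a value for KO1 is a value for that clone. The 3 untreated libraries of KO2 were used to ask which differences were found in KO1 and not in the other edited clone, and libraries of the same clones that had received interferon-gamma (IFNG) were used to ask whether the differences were found again.

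Dicer1 encodes the ribonuclease that cuts microRNA precursors into mature microRNAs, which lower the stability and translation of messenger RNAs that they pair with. B2 SINEs are short rodent retrotransposons present in many copies, some of which lie within genes or carry binding sites for transcription factors. Macrophages express receptors for microbes, antibodies and dying cells, lysosomal proteases, complement components and cytokines, and they keep a low basal level of interferon-stimulated genes.

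The guides are printed here because they define the edit that KO1 and KO2 share and the WT clones lack, and the pair shown is the one whose deletion was seen in the bulk of the electroporated cells. Each is written from 5′ to 3′ with its PAM, the bases that Cas9 needs beside the target, in capitals, and gEC005 lies upstream and gEC007 downstream of the element.
gEC005: ggccagggaacggctttagaGGG
gEC007: aaatagtcactgggcaacagTGG
The element lies in the first intron of Dicer1, which spans chr12:104731988-104751747 (mm10, minus strand) in a transcript of 27 exons. Positions of the guides in the genome were not analysed here. Among 141767 annotated mouse transcripts, searched on both strands for a guide next to an NGG, no transcript held either guide with fewer than 2 mismatches. The pseudogene Gm15375 had a site with 2 mismatches and was too low to be tested, and the overlapping genes Ugt1a9 and Ugt1a10 shared a site with 3 mismatches. Ugt1a10, a glucuronosyltransferase gene, averaged 111 CPM (fragment counts scaled to the size of the library) in WT and 99.2 CPM in KO1, a difference that did not pass the test (adjusted p = 0.323, edgeR).

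Counted fragments ran from 23760033 to 26197297 in the KO1 libraries and from 15566122 to 29000473 in the WT libraries. Differences were tested with edgeR's quasi-likelihood test on counts scaled by TMM factors and are given as log2 fold changes (log2FC, KO1 minus WT unless stated) with a standard error (SE), and genes are called at a Benjamini-Hochberg adjusted p under 0.05. Since nothing in the labels says that the 3 libraries of a clone came from separate cultures, p-values measure the spread between these libraries. Of 12 macrophage markers, 11 averaged at least 1 CPM in both WT and KO1, among them Csf1r at 1207 CPM in WT and 1405 CPM in KO1, whereas Cd163 was near 0. Markers of T cells, B cells, NK cells, mast cells and red cells summed to at most 0.197 CPM in any of the 12 libraries, and the 3 epithelial markers had no counts. The macrophage markers summed to 4873 to 6320 CPM in the WT libraries and to 7009 to 7371 CPM in KO1. The greatest part of this difference was Lyz2, at 1623 CPM in WT and 2564 CPM in KO1, which did not pass the test (adjusted p = 0.1215, edgeR). Of the single markers, Csf1r, Adgre1 and Spi1 were called higher in KO1 and Fcgr1 and Mertk lower. Markers of other cells stayed low, with sums of 1.54 to 2.60 CPM in WT and 2.11 to 3.39 CPM in KO1 for granulocytes, nearly all of it S100a8, 1.87 to 5.59 and 4.43 to 5.33 CPM for dendritic cells, 0.514 to 2.92 and 0.663 to 0.947 CPM for fibroblasts and 1.20 to 2.21 and 1.12 to 1.58 CPM for endothelial cells. WT1 stood apart from the other WT clones. Of 239 stretches of 10 Mb off chromosome 12, the median gene of WT1 lay at least 0.1 (log2) below the other WT clones in 36 and above them in 21, against 10 and 13 in WT2 and 10 and 4 in WT3. The count columns of WT1 are also named in another way than those of WT2 and WT3. Sample numbers in the WT1 headers run directly before those of KO1 and KO2, and those of WT2 and WT3 come after. What this naming and order stand for is not said, and their part in the differences was not tested. Without the 3 WT1 libraries, the number of genes called in KO1 went from 3658 to 7053. Counts of calls, gene lists and named genes were also computed without WT1, and those values stand beside the results that moved most.

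Genes of chromosome 12 were lower in untreated KO1 as a body, and genes of other chromosomes moved in both directions. Of 14239 genes tested, 3658 were called (25.7%), of which 1582 were higher (11.1%) and 2076 lower (14.6%) in KO1. On chromosome 12, 303 of 505 genes were called (60%), 294 of them lower (58.2%) and 9 higher (1.78%), and the median log2FC was -0.37. On the other chromosomes, 1782 of 13734 genes were lower (13%), 1573 were higher (11.5%) and the median was 0.0012. Chromosome 12 held 3.55% of the genes tested and 8.28% of those called. Whether fewer cells held a transcript or each cell held less of it cannot be told apart in bulk libraries, and these values are relative to the total of each library.

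The differences on chromosome 12 were many and small. From the lower to the upper quartile its log2FC values ran from -0.58 to -0.19, and 427 of 505 genes (84.6%) were below 0. Among the 315 genes of chromosome 12 with a WT mean of at least 10 CPM, 243 were lower, 5 were higher and the median was -0.38. On the other chromosomes the quartiles were -0.20 and 0.17. A difference of at least 2-fold was called for 461 genes in all (3.24%), 345 of them lower (2.42%) and 116 higher (0.815%). Of the 34 on chromosome 12 (6.73%), 32 were lower (6.34%) and 2 higher (0.396%), and of the 427 elsewhere (3.11%), 313 were lower (2.28%) and 114 higher (0.83%).

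**Figure D1:**
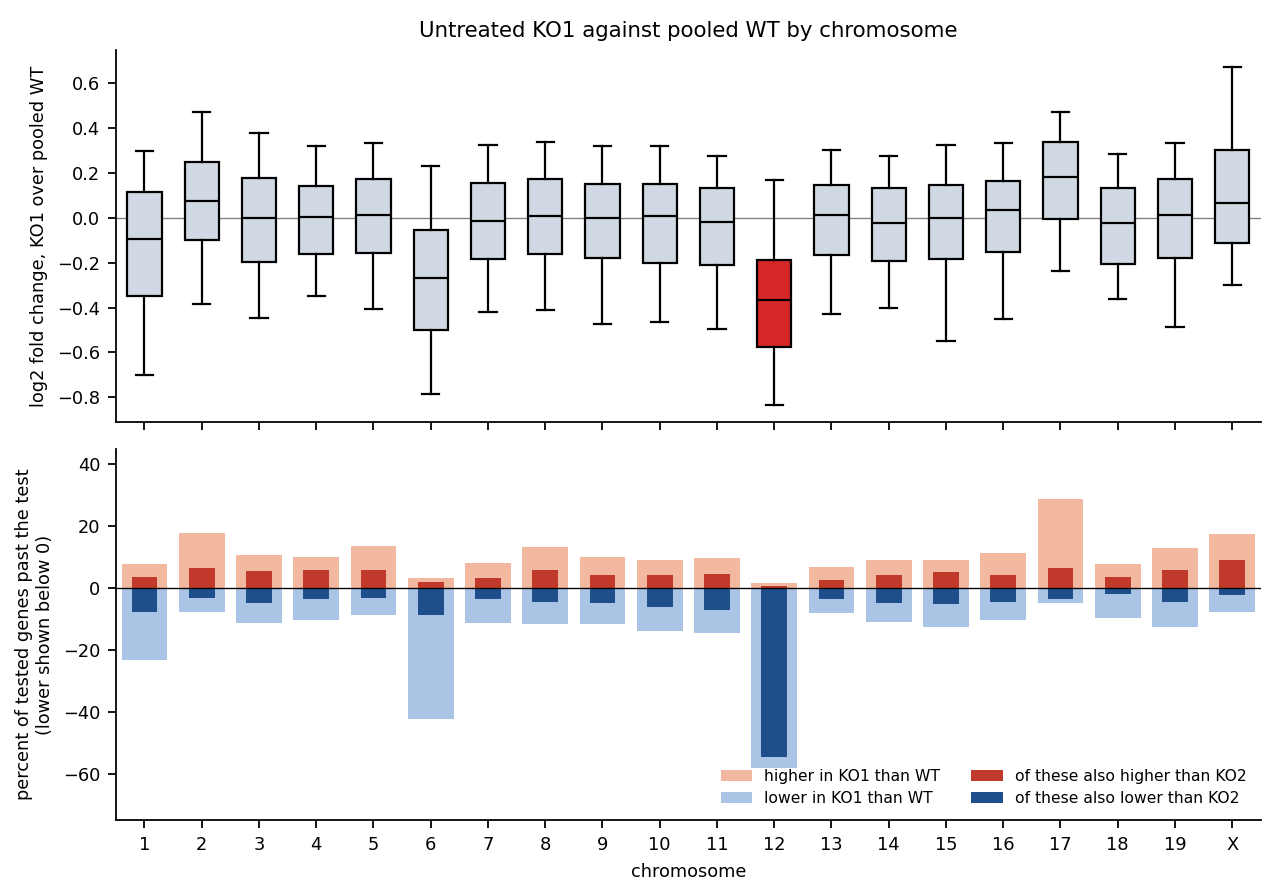
Upper panel: log2 fold change of all tested genes in untreated KO1 over pooled WT by chromosome (boxes, lower to upper quartile; line, median; whiskers, 10th to 90th percentile). Lower panel: percent of tested genes that were higher (above 0) or lower (below 0) in KO1 than WT, with the narrow dark bars showing those that also differed from KO2 in the same direction; chromosome 12 has the lowest median (-0.37), and 276 of its 294 lower genes were also lower than in KO2.

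KO1 was next compared with KO2, which carries the same deletion, to find what KO1 did not share with the other edited clone. Of 13826 genes, 1533 were higher in KO1 than in KO2 (11.1%) and 1674 were lower (12.1%). Each side of this test is a single clone, so its p-values hold the spread between libraries and none between clones. A gene is called particular to KO1 below when KO1 differed from both pooled WT and KO2 in the same direction; the comparisons share the KO1 libraries, so the 2 calls are not independent. This held for 1596 genes (11.2%), of which 672 were higher (4.72%) and 924 lower (6.49%). On chromosome 12, 279 of 505 genes were particular to KO1 (55.2%), 276 lower (54.7%) and 3 higher (0.594%), and on the other chromosomes 1317 of 13734 (9.59%), 648 lower (4.72%) and 669 higher (4.87%). Chromosome 12 thus held 29.9% of the lower ones. Without WT1 2240 genes were particular, and there were 651 when both contrasts came from 1 fit over all 15 untreated libraries, in which the spread between the pooled WT clones also enters the comparison with KO2. All 3 KO1 libraries lay below all 12 untreated libraries of WT and KO2 in 999 genes (7.02%), of which 248 were on chromosome 12 (49.1% of its genes) and 751 elsewhere (5.47%), and above them in 1017 genes (7.14%), 7 of them on chromosome 12 (1.39%).

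Of the 5 clones, KO1 alone was lower along the whole of chromosome 12. Against KO2, 344 of 489 tested genes of chromosome 12 were lower in KO1, 7 were higher and the median log2FC was -0.37. KO2 against pooled WT gave 18 lower and 21 higher of 512 genes and a median of 0.00064; the background of this comparison was 6.7% lower and 4.89% higher. In each of the 12 stretches of 10 Mb along chromosome 12, the median of log2(CPM + 0.5) was lower in all 3 KO1 libraries than in all 9 WT and all 3 KO2 libraries. The stretch medians of KO1 ran from -0.44 to -0.32, and those of KO2 from -0.070 to 0.052. WT1 was lower than the other WT clones in 2 of these stretches, with medians of -0.22 from 30 to 40 Mb and -0.17 from 100 to 110 Mb. Of 239 stretches on other chromosomes, 5 were below and 4 above all other untreated libraries in this way. The lowest of these was chr1:40000001-50000000, where the median was -0.41 in KO1 and -0.26 in KO2.

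The chromosome 12 values were also taken by class of gene. Of 390 protein-coding genes of chromosome 12, 276 were lower and 5 higher (median log2FC -0.39). Of 15 lincRNAs, 3 were lower, with a median of -0.57, and of 12 antisense genes 1 was lower, with a median of -0.082. Of 50 processed pseudogenes on the chromosome, none was lower, 4 were higher (Gm6682, Gm35638, Gm6969 and Gm6768) and the median was 0.18. On the other chromosomes, 51 of 984 processed pseudogenes were higher and 20 lower, with a median of 0.10. Processed pseudogenes are copies of spliced messenger RNAs and often resemble a parent gene on another chromosome, and how many of their fragments came from such a parent was not tested.

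Further chromosomes held runs of lower or higher genes in KO1, but KO2 had them as well. On chromosome 6, 302 of 714 genes were lower and 23 higher in KO1 (45.5% called), and 268 of 726 were lower and 8 higher in KO2. In KO1 the 12 stretches of chromosome 6 from 30 Mb onward had medians from -0.37 to -0.18, and in KO2 from -0.34 to -0.24. In the first 70 Mb of chromosome 1, 128 of 272 genes were lower and 4 higher in KO1, with a median log2FC of -0.29 in KO1 and also in KO2. Direct comparison of KO1 with KO2 gave medians of 0.020 over chromosome 6 and -0.0067 over this part of chromosome 1. The limits of these runs were set after the stretches had been seen, so they are described without a test. KO1 and KO2 share the WT libraries in these comparisons.

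Chromosome 17 and the end of chromosome X were higher in KO1 and KO2, and over most of these runs WT1 was high as well. Medians of KO1 and KO2 here are against the mean of the WT clones. Those of a WT clone are against the other WT clones. The size of a shift can thus not be ranked between KO1 and WT1, and a high WT1 lowers the values of WT2 and WT3. In the last stretch of chromosome 17, from 80 Mb, WT1 was at -0.084, against 0.23 in KO1, 0.22 in KO2, 0.041 in WT2 and 0.059 in WT3. On chromosome 17, 205 of 713 genes were higher and 35 lower in KO1 (33.7% called). The chromosome 17 median was 0.19 in KO1, 0.19 in KO2 and 0.25 in WT1, but -0.13 in WT2 and -0.11 in WT3. Over the last 2 stretches of chromosome X, from 150 Mb, the medians were 0.61 to 0.66 in KO1, 0.57 to 0.59 in KO2 and 0.82 to 0.85 in WT1, against -0.42 to -0.38 in WT2 and -0.41 to -0.37 in WT3. Without WT1, 423 genes of chromosome 17 were higher in KO1 and the median log2FC went from 0.18 to 0.29. Leaving out chromosomes 1, 2, 6, 12, 17 and X altogether, 1001 of 9842 genes were higher and 1115 lower in KO1 (21.5% called), and 904 were particular to KO1.

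**Figure D2:**
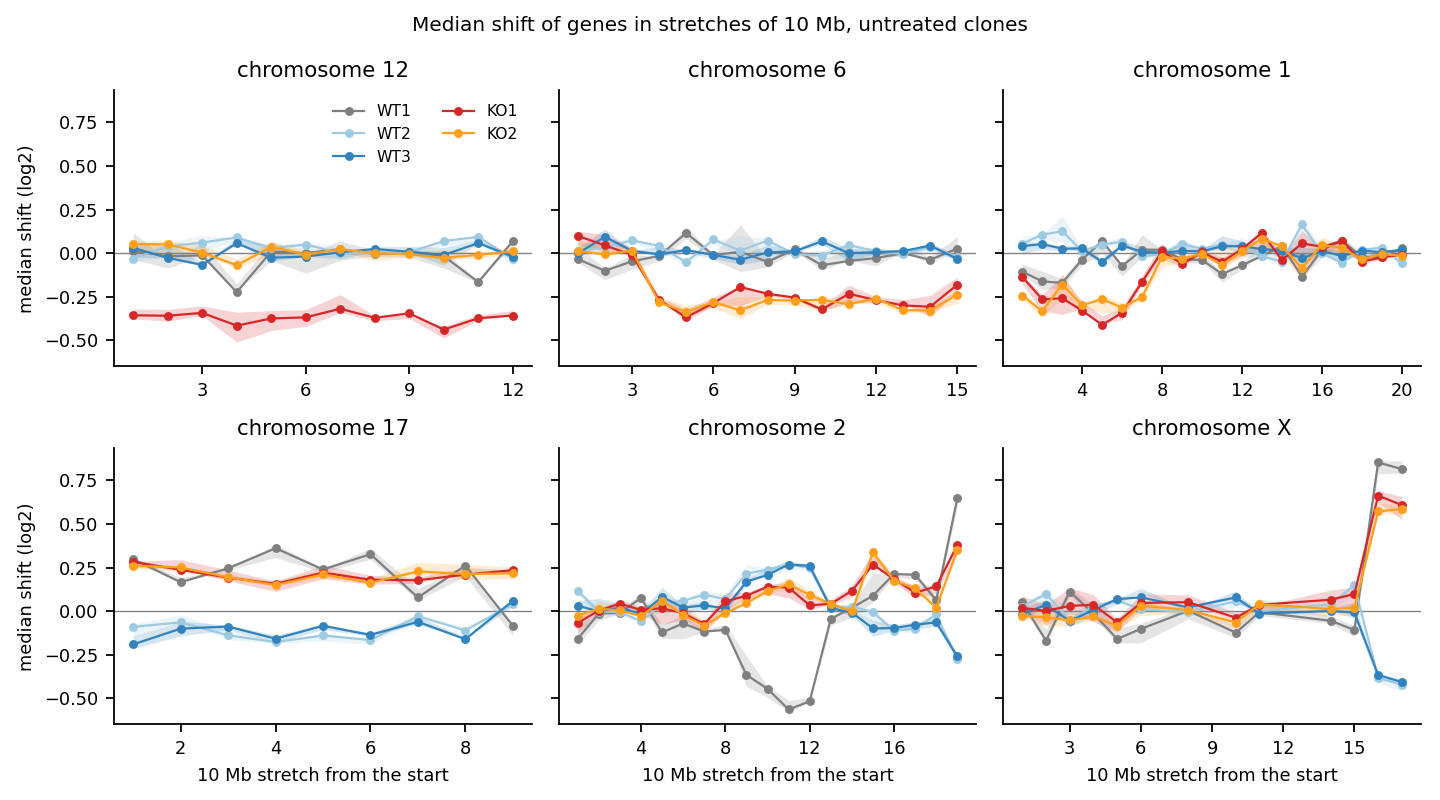
Median shift (log2) of the genes in each 10 Mb stretch, counted from the start of 6 chromosomes, for the 5 untreated clones (line, all libraries of a clone against the mean of the WT clones, or of the other WT clones for a WT clone; band, range of the 3 libraries). KO1 lies alone near -0.36 along chromosome 12, whereas KO1 and KO2 run close together on the other 5 chromosomes, and WT1 alone is low in a run of chromosome 2.

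Dicer1 was low in all 3 KO1 libraries, at 71.1, 73.0 and 70.5 CPM, against 108, 104 and 101 CPM in KO2 and 96.8, 124 and 130 CPM as the lowest, median and highest of the 9 WT libraries (chr12:104687742-104751952). KO1 did not overlap with WT or KO2. The log2FC of Dicer1 was -0.74 ± 0.082 (SE; adjusted p = 4.13e-05, edgeR) against WT and -0.56 (adjusted p = 1.91e-07, edgeR) against KO2. When the libraries were scaled on chromosome 12 genes alone, so that a difference is relative to the chromosome's own shift, the log2FC of Dicer1 was -0.37 ± 0.074 (adjusted p = 0.000715, edgeR).

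Among the 6 most abundant genes of chromosome 12 in WT, 5 were lower in KO1, with log2FC values from -0.41 to -0.22. Dync1h1, the heavy chain of the motor protein dynein, was at 483, 490 and 444 CPM in KO1 against 529, 625.3 and 666 CPM as the lowest, median and highest WT library and 598, 583 and 565 CPM in KO2. All KO1 libraries were below all others, with a log2FC of -0.39 ± 0.065 (adjusted p = 0.000807, edgeR). Lgmn, a lysosomal asparaginyl protease, was at 445, 445 and 407 CPM in KO1, against 487 to 670.02 CPM in WT (log2FC -0.41 ± 0.095, adjusted p = 0.00678, edgeR), and was highest in KO2 at 707, 721 and 684 CPM. Eif5, a translation initiation factor gene, fell by 0.39 ± 0.088 (adjusted p = 0.00596, edgeR). The cytosolic chaperone gene Hsp90aa1 had a smaller difference, with 819, 836 and 912 CPM in KO1 and 907 to 1098 CPM in WT (log2FC -0.22 ± 0.063, adjusted p = 0.0203, edgeR), and KO1 and WT overlapped. This call was lost without 2 of the 3 KO1 libraries in turn or without WT2. The ribosomal protein gene Rps7, at 522, 483 and 519.9 CPM in KO1 and 471 to 786 CPM in WT, did not pass the test (log2FC -0.18 ± 0.13, adjusted p = 0.361, edgeR).

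Relative to the shift of the chromosome, 175 of its 505 genes differed (34.7%), 80 higher (15.8%) and 95 lower (18.8%). Under this scaling the genes of the other chromosomes were higher as a body and 62.5% of all tested genes were called (58.2% higher, 4.26% lower), so the adjustment let pass unadjusted p-values up to 0.0312, against 0.0128 in the comparison above. At that lower limit, 63 genes were higher and 76 lower. The strongest decreases were in low genes. Acot6, an acyl-CoA thioesterase gene, was at 0.166, 0.158 and 0.077 CPM in KO1 against 0.703 to 1.82 CPM in WT, with a log2FC of -3.15 ± 0.44 against WT (adjusted p = 0.000243, edgeR). Sdc1, which encodes the cell-surface proteoglycan syndecan-1, was at 0.373, 0.197 and 0.270 CPM in KO1 against 0.852 to 2.55 CPM in WT (log2FC -2.52 ± 0.43, adjusted p = 0.00102, edgeR). Both had KO2 libraries within the WT range. Cep170b, a gene of a centrosomal protein, was at 13.1 ± 1.39 CPM in KO1 and 14.4 ± 0.50 CPM in KO2 (SD, n = 3 each) against 36.5 ± 4.71 CPM in WT (SD, n = 9), and KO1 did not differ from KO2 by the test (log2FC -0.15, adjusted p = 0.205, edgeR). Adcy3, an adenylate cyclase gene, averaged 0.320 CPM in KO1 and 1.01 CPM in WT (log2FC -1.65, adjusted p = 0.0139, edgeR), a call lost without either of 2 KO1 libraries.

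Genes of chromosome 12 that went against its shift were few. Nrcam, a neuronal cell adhesion molecule gene, was at 57.6, 60.3 and 51.5 CPM in KO1 against 13.2, 19.01 and 26.7 CPM as the lowest, median and highest WT library, with KO2 between at 42.8, 46.2 and 40.9 CPM. All KO1 libraries were above all others, with a log2FC of 1.52 ± 0.17 against WT (adjusted p = 3.68e-05, edgeR) and 0.37 against KO2 (adjusted p = 0.000485, edgeR). Sp8, a zinc finger transcription factor gene, was at 2.28, 2.01 and 2.54 CPM in KO1 and at most 1.59 CPM in WT (log2FC 1.05 ± 0.24, adjusted p = 0.00596, edgeR), and KO2 lay in the WT range. Odc1, which makes polyamines from ornithine, was at 117, 109 and 143 CPM in KO1 against 71.9 to 103 CPM in WT (log2FC 0.50 ± 0.098, adjusted p = 0.00258, edgeR). Map3k9, Rhoj and Gm49654 were higher than the chromosome without passing the test against WT, and in each of them WT1 was as high as the edited clones. Rhoj, a small GTPase gene, averaged 35.5 CPM in KO1, 35.7 CPM in KO2 and 34.4 CPM in WT1 but 7.13 CPM in WT2 and 14.8 CPM in WT3. All 3 passed the test against WT when WT1 was left out. The imprinted Dlk1-Dio3 genes of chromosome 12 could not be compared, since none of the 8 listed passed the filter on low counts.

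**Figure D3:**
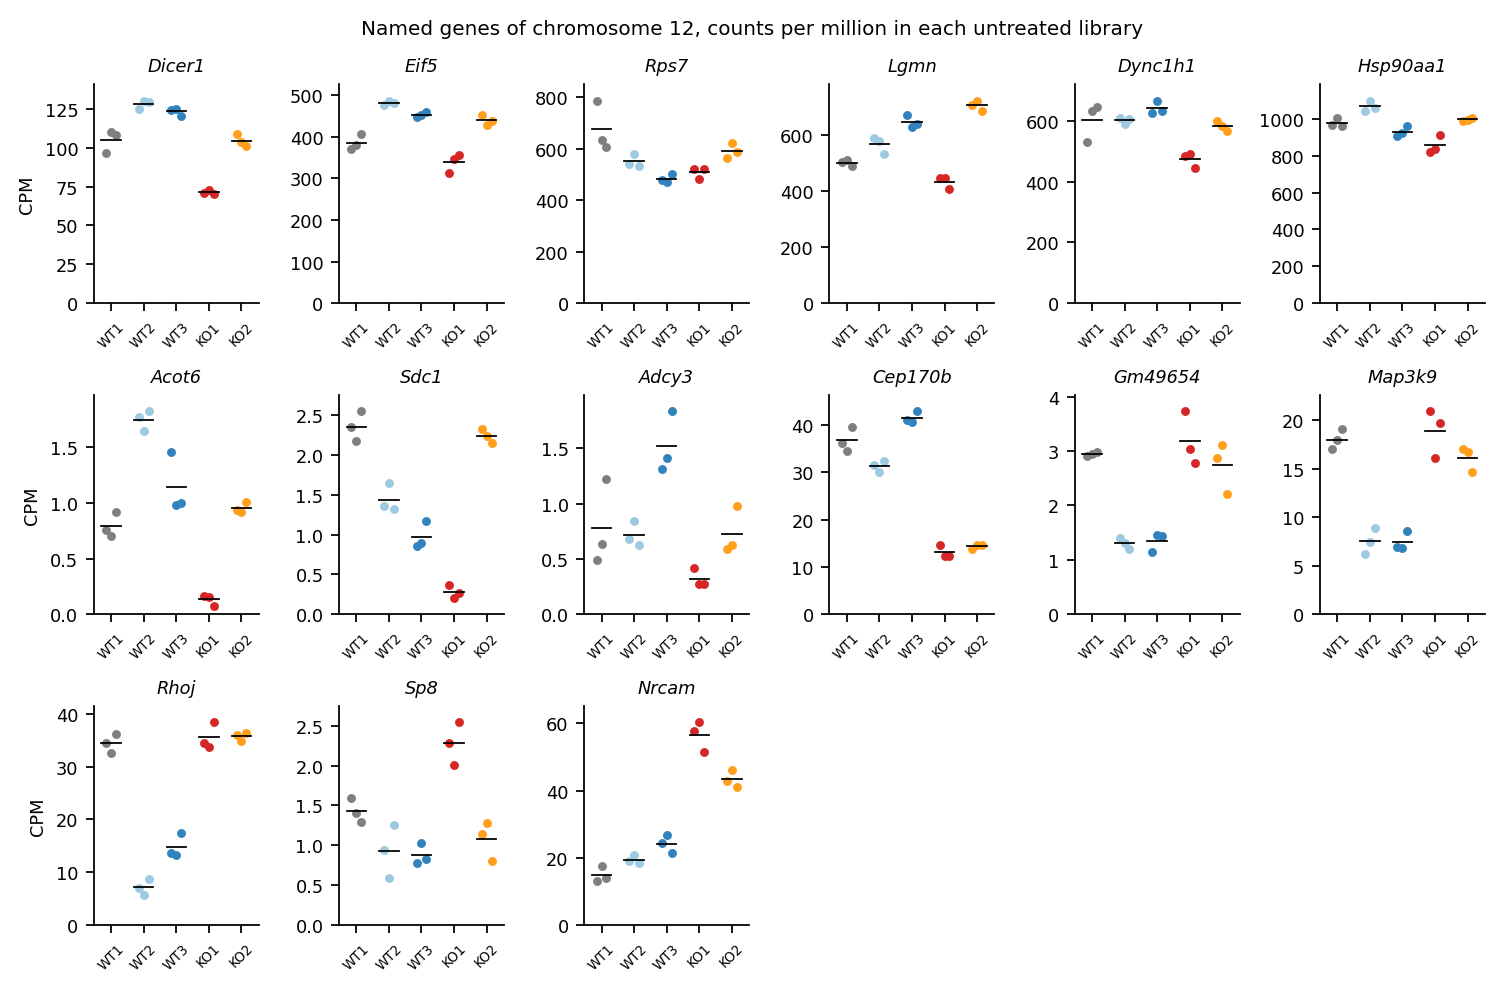
CPM in each untreated library for Dicer1 and for genes among the most abundant of chromosome 12 and among the lowest and highest relative to its shift (points, libraries; bars, clone means; each axis starts at 0). In Dicer1, Dync1h1, Lgmn and Acot6 the 3 KO1 points lie below all others, whereas in Rhoj and Map3k9 WT1 lies with KO1 and KO2.

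Off chromosome 12, 1079 genes were particular to KO1, lay outside the range of all 12 other untreated libraries and averaged at least 1 CPM in KO1 or WT, 573 of them higher and 506 lower. Ttn, the gene of the giant muscle protein titin, had the greatest increase among them, at 2.53, 2.96 and 3.16 CPM in KO1 against 0, 0.213 and 0.475 CPM as the lowest, median and highest WT library and 0.403 to 0.521 CPM in KO2 (chr2:76703980-76982547). Its log2FC was 3.71 ± 0.38 against WT (adjusted p = 2.26e-05, edgeR) and 2.68 against KO2 (adjusted p = 4.17e-07, edgeR). Fgr (chr4:132974095-133001910), a Src family kinase of myeloid cells, was at 6.30, 4.74 and 9.63 CPM in KO1, above the highest WT library at 1.61 CPM and the highest KO2 library at 0.951 CPM (log2FC 3.41 ± 0.60, adjusted p = 0.00121, edgeR; 5.15 without WT1). Mcemp1, a membrane protein gene of mast cells and myeloid cells, was at 1.41, 1.54 and 1.66 CPM in KO1 and at most 0.402 CPM in WT (log2FC 2.95 ± 0.48, adjusted p = 0.000696, edgeR; 3.95 without WT1). Cpt1c, a carnitine palmitoyltransferase best known from brain, was at 9.32, 9.83 and 8.20 CPM in KO1 and at 0.444 to 1.95 CPM in WT (log2FC 2.80 ± 0.29, adjusted p = 2.74e-05, edgeR), and KO2 resembled WT at 0.659, 1.28 and 1.075 CPM.

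Genes with larger counts were also among the increases. Ppp1r12b, a myosin phosphatase subunit gene, was at 80.5, 77.2 and 97.3 CPM in KO1, 49.3, 43.5 and 53.7 CPM in KO2 and 10.96, 12.8 and 31.4 CPM as the lowest, median and highest WT library (log2FC 2.22 ± 0.32, adjusted p = 0.000264, edgeR). Il1rn (chr2:24336853-24351494), which encodes the antagonist of the interleukin-1 receptor, was at 53.4, 53.9 and 80.9 CPM in KO1, at 23.4 to 27.6 CPM in KO2 and at 12.8 to 19.2 CPM in WT (log2FC 2.02 ± 0.13, adjusted p = 6.7e-07, edgeR). In both genes KO2 lay between WT and KO1 without overlap. Igf2r (chr17:12682406-12769664), the receptor that carries mannose-6-phosphate-tagged enzymes to lysosomes, was at 10.4, 9.39 and 13.9 CPM in KO1 against 1.00 to 3.02 CPM in WT (log2FC 2.77 ± 0.26, adjusted p = 1.21e-05, edgeR). The collagen gene Col4a2 rose by 2.29 ± 0.17 (adjusted p = 2.53e-06, edgeR) and the tetraspan protein gene Tm4sf19 by 2.24 ± 0.55 (adjusted p = 0.00965, edgeR; 3.58 without WT1). The other genes of this group were Lipn, a lipase gene, with a log2FC of 2.09, Plpp1, a phospholipid phosphatase gene, with 2.04, and the adrenergic receptor gene Adra1a with 2.002, and in each the KO1 libraries were above all others.

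The decreases off chromosome 12 included genes with almost no fragments in KO1. Ncs1, a neuronal calcium sensor gene, had no counts in any KO1 library, against 0.985 to 5.06 CPM in WT and 0.134 to 0.243 CPM in KO2. With a floor of 3 counts over the KO1 libraries it was at least 71.1-fold lower than in WT. Itih5 had no counts in KO1 either, but the WT clones spread from 0.071 to 6.38 CPM and it did not pass the test (adjusted p = 0.0502, edgeR), although it passed without WT1 (adjusted p = 0.013, edgeR) and without WT3 (adjusted p = 0.0145, edgeR). Tmcc2, Col18a1 and Rtn4rl1 had 3, 2 and 3 counts over the KO1 libraries. The ratio of WT to KO1 was 128 for Tmcc2 (95% exact interval 43.6 to 621, counting error only), 87.0 for Col18a1 (23.96 to 721) and 31.8 for Rtn4rl1 (10.8 to 155). Col18a1, a collagen gene, was in KO2 at 2.36, 2.63 and 2.82 CPM, within the WT range of 1.35 to 3.28 CPM.

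More abundant genes fell in KO1 as well. Cd28 (chr1:60716800-60773359), known as a costimulatory receptor of T cells, was at 10.6, 10.3 and 9.24 CPM in KO1 against 70.4, 112 and 215 CPM as the lowest, median and highest WT library and 25.7, 24.4 and 19.9 CPM in KO2. The groups did not overlap, with a log2FC of -3.70 ± 0.45 against WT (adjusted p = 8.3e-05, edgeR) and -1.23 against KO2 (adjusted p = 1.91e-07, edgeR), while Cd3e, Cd3g and Cd8a of T cells had no counts in these 12 libraries. F13a1, the A subunit of coagulation factor XIII, was at 2.28, 2.05 and 2.19 CPM in KO1, but the WT libraries spread from 3.65 to 81.1 CPM, with WT2 lowest. Its log2FC was -3.98 ± 1.16 (adjusted p = 0.0233, edgeR), a call that was lost without any 1 of the KO1 libraries, and -2.59 without WT1. Acap1, a GTPase-activating protein gene, had a log2FC of -4.65 ± 1.55 (adjusted p = 0.0425, edgeR) and a WT range from 0.771 to 30.998 CPM. The Acap1 call was lost without any 1 KO1 library, without WT1 library 2 or 3, and without WT2, and without WT1 the log2FC was -2.38. Zfp618 and Zfp704, zinc finger genes, were at 0.642 ± 0.22 and 0.323 ± 0.21 CPM in KO1 (SD, n = 3 each) against 9.22 ± 4.15 and 8.64 ± 5.78 CPM in WT (SD, n = 9 each), and without WT3 the log2FC of Zfp704 went from -4.73 to -4.05. A530064D06Rik fell by 4.06 ± 0.32 on the log2 scale, AI427809 by 5.10 ± 0.89 and Cables1 by 3.83 ± 0.56, with AI427809 at -4.32 without WT3, and all 3 passed the test in every fit that left out 1 library or 1 WT clone.

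**Figure D4:**
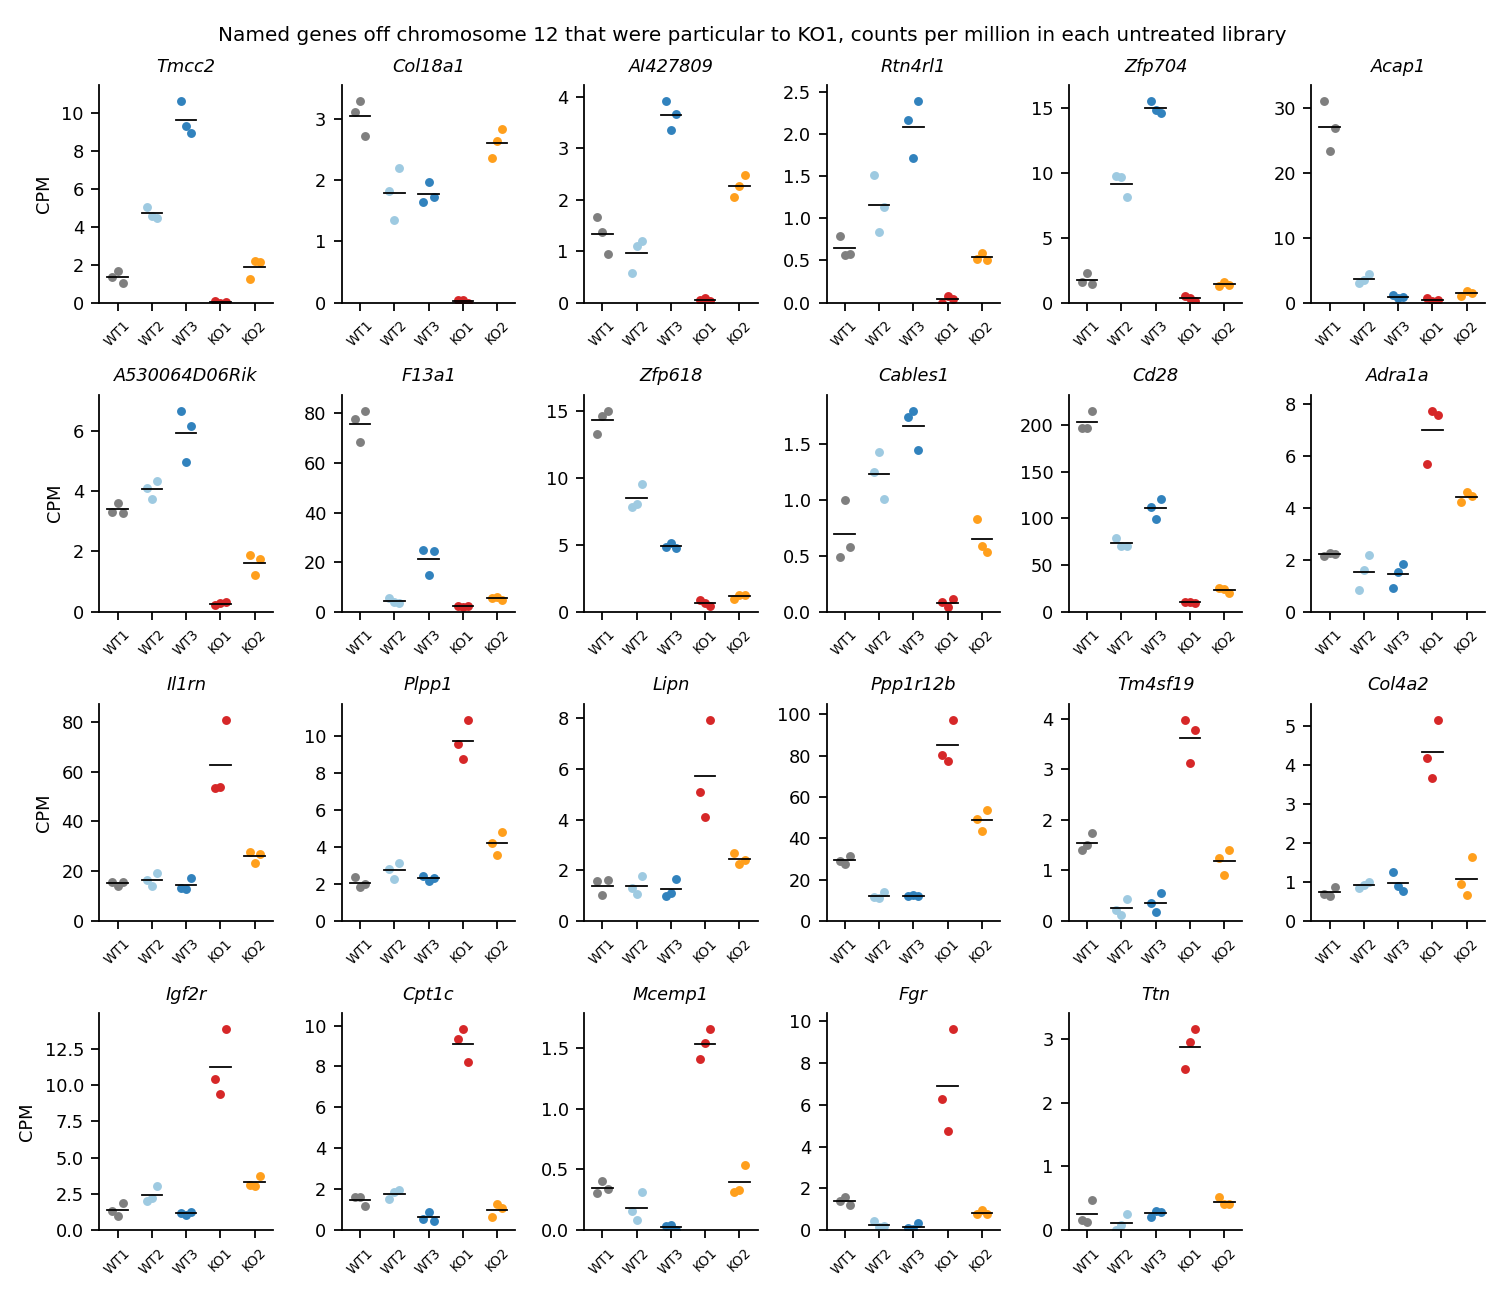
CPM in each untreated library for genes among the 12 lowest and 12 highest off chromosome 12 of those particular to KO1 (points, libraries; bars, clone means; each axis starts at 0). The WT clones differ among themselves in Acap1, F13a1 and Zfp704, where the lowest WT clone is close to KO1, and KO2 lies between WT and KO1 in Cd28, Il1rn and Ppp1r12b.

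The members of gene lists were then counted, with 14.6% lower and 11.1% higher among all genes as the background. Without WT1 the background itself rose, from 1582 to 3449 genes higher and from 2076 to 3604 lower. List counts without WT1 can therefore not be read against the shares with WT1. For members particular to KO1 the background was 4.72% higher and 6.49% lower among all genes. Such members were not counted under the fit over all untreated libraries, which gave 651 particular genes in place of 1596. The lists were taken from general knowledge of macrophages and of microRNA processing, and none is a test of enrichment. Interferon-stimulated genes were mostly lower in KO1, with 22 of 42 lower, 1 higher and a median log2FC of -0.57, against a median near 0 over the genes off chromosome 12. Slfn8, an interferon-induced gene of the Schlafen family, was at 11.3, 11.4 and 11.7 CPM in KO1 against 19.1, 30.8 and 35.3 CPM as the lowest, median and highest WT library and 15.5 to 16.8 CPM in KO2 (log2FC -1.33 ± 0.21, adjusted p = 0.000581, edgeR). Irf7, a transcription factor of the interferon response, fell by 1.11 ± 0.22 (adjusted p = 0.00288, edgeR), Cmpk2, a mitochondrial nucleotide kinase gene on chromosome 12, by 1.16 ± 0.22 (adjusted p = 0.0022, edgeR) and Dhx58, a cytosolic RNA sensor gene, by 1.06 ± 0.14 (adjusted p = 0.000188, edgeR). Stat2, which carries the interferon signal, had a log2FC of -0.58. In KO2 18 of these genes were lower and 1 higher than WT, with a median of -0.55, and 6 of the 22 were also lower in KO1 than in KO2. Leaving out genes of chromosomes 1, 2, 6, 12, 17 and X, 13 of 30 were lower and none was higher in KO1, and without WT1 29 of 41 were lower and 4 higher.

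Among integrins and uptake receptors more genes were lower than higher in KO1, and some were particular to it. Of 14 integrin genes, 6 were lower and 1 higher, the median log2FC was -0.38, and 5 were particular to KO1. Itgav, the alpha V subunit that binds vitronectin and latent TGF-beta, was at 46.8, 49.9 and 45.1 CPM in KO1, 123, 116 and 110 CPM in KO2 and 68.2 to 206 CPM in WT (log2FC -1.66 ± 0.38, adjusted p = 0.00623, edgeR). Itgb5, a partner of Itgav, fell by 1.36 ± 0.29 (adjusted p = 0.00444, edgeR), Itgal, a subunit of the leukocyte integrin LFA-1, by 1.04 ± 0.18 (adjusted p = 0.00122, edgeR) and Itga8 by 3.20 ± 0.31 (adjusted p = 1.83e-05, edgeR). In all 4 genes the KO1 libraries were below those of KO2 and WT. Of 22 Fc gamma receptors, C-type lectins and scavenger receptors, 9 were lower and 2 higher, with a median of -0.25, and in KO2 8 were lower and 1 higher. Clec12a, an inhibitory receptor for dead cells, went the other way and was at 133, 127 and 156 CPM in KO1 against 44.5 to 54.5 CPM in KO2 and 20.9 to 68.9 CPM in WT (log2FC 1.64 ± 0.31, adjusted p = 0.00197, edgeR), although it lies on chromosome 6. Stab1, a scavenger receptor gene, was at 75.9 to 77.8 CPM in KO1 and 90.8 to 94.2 CPM in KO2, and the WT libraries spread from 96.3 to 914 CPM. The Stab1 call (log2FC -2.84 ± 0.80, adjusted p = 0.0201, edgeR) was lost without any 1 KO1 library, without WT2 and without WT3. After the 6 shifted chromosomes were left out, 3 of 6 receptors and 3 of 9 integrins were lower, and without WT1 14 of 22 receptors were lower and 4 higher, and 7 of 13 integrins lower and 3 higher.

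Macrophage identity genes went in both directions, with 7 of 26 lower, 5 higher and a median log2FC of 0.039, and without WT1 10 were lower and 12 higher. Adgre1, which encodes the macrophage surface protein F4/80, was at 239, 248 and 260.1 CPM in KO1 and 273 to 294 CPM in KO2, above all WT libraries at 9.27 to 108 CPM (log2FC 2.28 ± 0.62, adjusted p = 0.0161, edgeR), and lies on chromosome 17. The Adgre1 call was lost without 2 of the KO1 libraries in turn or without WT3. Mertk, a receptor for the uptake of dying cells, was at 18.9, 22.9 and 17.2 CPM in KO1, 25.3 to 25.96 CPM in KO2 and 28.5 to 59.8 CPM in WT (log2FC -1.31 ± 0.25, adjusted p = 0.00176, edgeR). Spi1, the gene of the myeloid transcription factor PU.1, had a log2FC of 0.43 (adjusted p = 0.00097, edgeR), and Csf1r, the receptor for the growth factor CSF1, had 0.21 (adjusted p = 0.0115, edgeR). Cebpa, a further myeloid transcription factor gene, fell by 1.92 ± 0.56 (adjusted p = 0.0236, edgeR), a call lost without any 1 KO1 library, without WT2 and without WT3.

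Among complement components, cytokines and sensors, several genes were particular to KO1. Of 13 complement genes, 3 were lower and 1 was higher, with a median log2FC of -0.43 in KO1 and 0.15 in KO2. Without WT1, 5 of 12 were lower and 2 higher, with a median of -0.079 in KO1. The higher one was C3, the central component of the cascade, with 1.18 (1.83 without WT1), a call lost without any 1 KO1, WT2 or WT3 library. C1qa and C1qc, which encode chains of the first complement component C1q, were lower in KO1 than in both WT and KO2. C1qc was at 176, 179 and 156 CPM in KO1, 297 to 334 CPM in KO2 and 194 to 324 CPM in WT (log2FC -0.69 ± 0.16, adjusted p = 0.00706, edgeR). C1qa fell by 0.88 ± 0.26 (adjusted p = 0.0243, edgeR), a call lost without any 1 KO1 library and without WT2. The interleukin-10 gene Il10 was at 2.28, 1.54 and 1.62 CPM in KO1 against 3.96 to 6.002 CPM in KO2 and 2.55 to 6.86 CPM in WT (log2FC -1.20 ± 0.29, adjusted p = 0.00874, edgeR), and its call was lost without 2 of the KO1 libraries in turn. Vegfa had no counts in KO1 or KO2 and 0.201 to 0.728 CPM in WT, at least 11.01-fold lower in KO1. Of 25 cytokine and growth factor genes, 8 were lower and 2 higher, and without WT1 9 of 24 were lower and 6 higher. Of 26 Toll-like receptor and adaptor genes, 6 were lower and 5 higher (13 and 8 without WT1), among them Tlr5, the flagellin receptor, at 3.35 to 4.81 CPM in KO1 against 7.92 to 10.7 CPM in WT (log2FC -1.21 ± 0.12, adjusted p = 1.81e-05, edgeR). The chemokine receptor gene Cxcr3 had a log2FC of 1.095 ± 0.12 (adjusted p = 2.92e-05, edgeR) and Cxcr4 one of -0.70 ± 0.12 (adjusted p = 0.000926, edgeR), both with KO1 outside the WT range.

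Targets of the transcription factor p53 were more often higher than lower. Of 28, 8 were higher and 2 lower, with a median log2FC of 0.16, and 7 of the 8 were particular to KO1. Cdkn1a, the cell cycle inhibitor p21, was at 273, 249.7 and 242 CPM in KO1, 177 to 191 CPM in KO2 and 95.2 to 162 CPM in WT (log2FC 1.097 ± 0.15, adjusted p = 0.000233, edgeR). The KO1 libraries were above all others. Zmat3, an RNA-binding p53 target, rose by 0.76 ± 0.090 (adjusted p = 6.91e-05, edgeR), the proapoptotic gene Bax by 0.61 and the p53 ubiquitin ligase gene Mdm2 by 0.35, whereas the DNA repair gene Xpc, on chromosome 6, fell by 0.72 ± 0.081 (adjusted p = 4.55e-05, edgeR). In KO2, 3 p53 targets were higher and 2 lower. Leaving out the 6 shifted chromosomes, 7 of 21 were higher and 1 lower in KO1, and without WT1 15 of 28 were higher and 5 lower. Genes of mitosis were lower in KO1 in 11 of 36 cases, none of them particular to it, in 13 cases in KO2, and in 24 cases in KO1 without WT1. Of 44 DNA replication genes, 8 were higher and 5 lower (12 and 13 without WT1), among them Pcna, the sliding clamp of DNA polymerase (log2FC 0.39 ± 0.069, adjusted p = 0.00124, edgeR).

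Nuclear genes of oxidative phosphorylation were higher in 28 of 77 cases and lower in 3, with a median log2FC of 0.16, and 19 were particular to KO1. Their differences were small, with the greatest in Ndufv2 at 0.47 ± 0.11 and in Ndufa2 at 0.41 ± 0.080, both subunits of respiratory complex I (adjusted p = 0.00691 and 0.00231, edgeR). Ndufa2 was at 51.1, 46.6 and 49.8 CPM in KO1 and 31.8 to 44.9 CPM in WT. In KO2 5 of these genes were higher and 5 lower, with a median of 0.034, and 19 of 51 were higher and none lower in KO1 after the 6 shifted chromosomes were left out. Without WT1 48 of 77 were higher and 3 lower. Of 13 mitochondrially encoded genes, mt-Co1 alone was called (log2FC 0.24, adjusted p = 0.0237, edgeR), and its call was lost without 2 of the KO1 libraries in turn. Without WT1, 4 of the 13 were lower and 1 higher. Of 80 cytosolic ribosomal protein genes, 10 were higher and none lower, a share close to the background of 11.1%, and without WT1 69 were higher and 1 lower. Many ribosomal protein genes have near-identical pseudogenes that can take a part of their fragments. The antioxidant genes Gpx1 and Sod2 were both particular to KO1, with log2FC values of 0.89 ± 0.11 (adjusted p = 0.000131, edgeR) and 0.76 ± 0.059 (adjusted p = 4.07e-06, edgeR), and 4 of 24 genes of that list were higher and 4 lower (7 and 11 without WT1).

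Genes of microRNA processing and silencing were called in 10 of 23 cases, 6 higher and 4 lower, with a median log2FC of 0.091. After Dicer1 the lowest was Dis3l2, an exonuclease gene that degrades uridylated precursors of let-7, which was at 18.4, 19.3 and 17.7 CPM in KO1 against 23.8 to 29.2 CPM in WT and 21.4 to 23.2 CPM in KO2 (log2FC -0.50 ± 0.062, adjusted p = 0.000101, edgeR). Tnrc6b, a partner of Argonaute proteins, had a log2FC of -0.40 ± 0.11 (adjusted p = 0.0203, edgeR), and its call was lost without any 1 KO1 library, without WT2 and without WT3. Tarbp2, which binds Dicer1, and Xpo5, which exports precursors from the nucleus, were higher by 0.28 and 0.36. Without WT1 11 of the 23 were higher and 4 lower. Of 120 microRNA genes tested, 12 were higher, a share close to the background of 11.1%, and 7 lower, a share below the background of 14.6%. Without WT1 27 of 114 were higher and 13 lower. The libraries hold polyadenylated RNA, and such entries count fragments of the host transcript, so mature microRNAs were not measured.

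The remaining lists had called members in both directions or few called members, and several had more calls without WT1, as had all genes. Of 39 lysosome genes 5 were higher and 3 lower (10 and 11 without WT1), among them Ctsh, a cathepsin gene, at 1.57, 1.03 and 0.693 CPM in KO1 against 5.09 to 20.8 CPM in WT and 3.44 to 3.83 CPM in KO2 (log2FC -3.50 ± 0.53, adjusted p = 0.000432, edgeR). Cholesterol synthesis and uptake genes were lower in 7 of 30 cases and higher in 2, and without WT1 in 17 and 3. Of 14 chemokine genes 4 were higher and 1, Ccl12, was lower, with a median log2FC of -0.14, and without WT1 6 were higher and 3 lower. The higher ones were Ccl2, Ccl9, Cxcl14 and Cxcl16, with log2FC values of 0.51, 0.79, 1.96 and 0.53, of which the Ccl2 call was lost without 1 KO1 library and the Cxcl14 value was 2.83 without WT1. Of 27 glycolysis genes 1 was higher and 3 lower, whereas without WT1 19 were higher and 4 lower. Of 25 genes of NF-kB subunits and regulators 1 was higher and 1 lower, and without WT1 11 and 3. Of 23 genes of MHC class I presentation 2 were higher and 1 lower, and without WT1 10 and 3. Of 15 genes of MHC class II and costimulation 2 were lower, and without WT1 4 were lower and 5 higher. Of 27 immediate early genes 1 was higher and 2 lower, and without WT1 9 and 3 of 26. Of 15 genes of the phagocyte oxidase and related enzymes 3 were higher and 2 lower, and without WT1 6 and 2 of 13. Fosb, an immediate early transcription factor gene, was at 0.963 to 2.44 CPM in KO1 and 1.35 to 1.72 CPM in KO2 against 6.89 to 24.8 CPM in WT (log2FC -2.93 ± 0.45, adjusted p = 0.000467, edgeR). Endoplasmic reticulum stress and heat shock genes were higher in 5 and lower in 4 of 29 cases (8 and 5 of 28 without WT1), and 3 of the lower ones, Pdia6, Dnajb9 and Hsp90aa1, lie on chromosome 12, with the Dnajb9 call lost without 1 KO1 library. Of 312 Zfp zinc finger genes 52 were lower, a share close to the background of 14.6%, and 14 higher, a share below that of 11.1%. Without WT1 88 of 309 were lower and 35 higher. Of the 312, 26 were lower and particular to KO1, against 6.49% of all genes. Zfp583 and Zfp125 had no counts in KO1, against 0.252 to 0.944 CPM in WT for Zfp583 and 0 to 1.28 CPM for Zfp125, whose call was lost without any 1 KO1 or WT3 library.

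**Figure D5:**
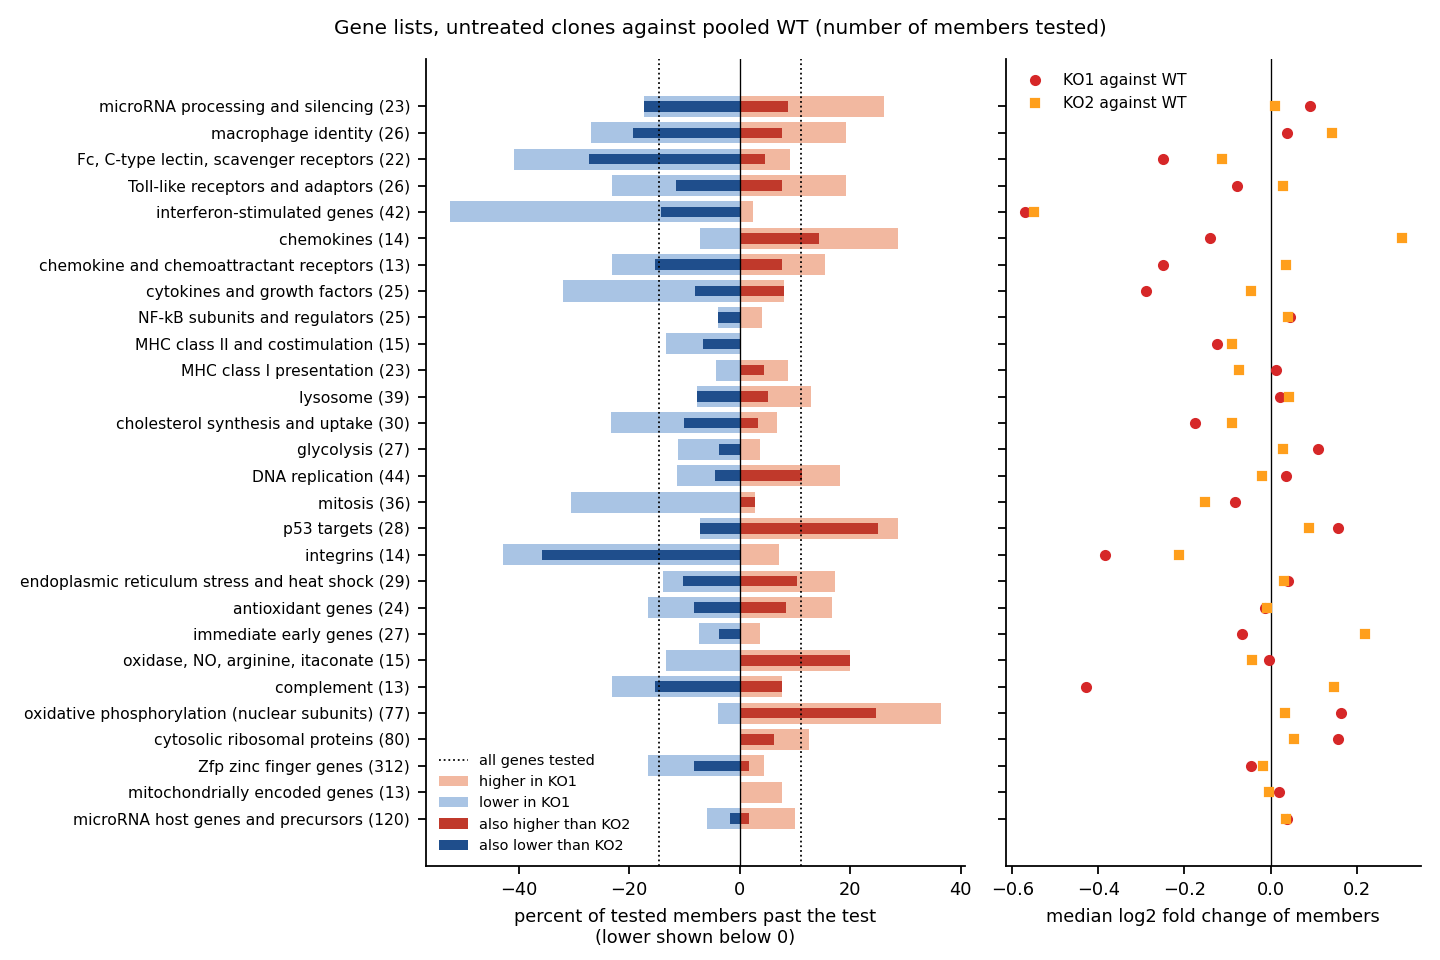
Left: percent of tested members of each gene list that were higher (above 0) or lower (below 0) in KO1 than in pooled WT, with narrow dark bars for those that also differed from KO2 in the same direction, and dotted lines for all genes tested (11.1% higher, 14.6% lower). Right: median log2 fold change of the members in KO1 (circles) and KO2 (squares) against the same WT libraries; interferon-stimulated genes lie near -0.57 in KO1 and -0.55 in KO2, and genes of oxidative phosphorylation at 0.16 and 0.034.

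The differences of KO1 from WT were found again in the IFNG-treated libraries of the same clones, which share no library with the untreated ones. After IFNG, 1230 of 14043 genes were higher in KO1 (8.76%) and 1704 lower (12.1%). Of the 3613 genes called untreated and tested after IFNG, 2276 were called in the same direction, 63.0% of the untreated calls and 78.7% of the 2892 IFNG calls, and 1 was called in the opposite direction. On chromosome 12 these shares were 83.3% of 299 and 91.5% of 272 genes. Chromosome 12 had a median log2FC of -0.36 after IFNG, and 263 of its 501 genes were lower and 15 higher. Of the 1585 genes particular to untreated KO1 that could be tested, 1120 were called in the same direction after IFNG. The change of the difference with IFNG was called for 130 of 14700 genes (0.884%), 105 with a higher value after IFNG (0.714%) and 25 with a lower one (0.17%), and for 67 of the 3657 genes called untreated and tested for it. Those 3657 genes were chosen by the untreated libraries, which also enter the test of the change. The 67 can therefore not be read against the share over all genes.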

How the data were processed

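Polyadenylated RNA of 5 J774A.1 clones was sequenced, and the files the authors deposited hold unnormalised fragment counts by gene. Per the labels and file headers they aligned reads to mm10 with HISAT2 2.1.0 and counted them with featureCounts 1.6.2 in reversely stranded mode, a fragment over overlapping genes counting for each. The table header names Gencode vM18 and the paper RefSeq. Columns named wtc1 and wtc3 were assigned to WT2 and WT3 through tables that name those clones. Biotypes came from GENCODE vM21.
Counts were analysed with edgeR 4.0.16 in R 4.3.3 (filterByExpr, TMM, glmQLFTest, threshold 0.05), and DESeq2 1.42.0 was an alternative. SE was taken as the size of log2FC over the root of F. CPM used TMM factors from 14870 genes. Chromosome shifts used genes averaging 1 CPM or more, with a pseudocount of 0.5. Total counts ran from 15566122 to 29000473, and each SE of a comparison with pooled WT also holds the spread between the WT clones. The interaction was fitted with a term for each clone, so its SE does not hold differences in level between clones. With all libraries thinned to the smallest, 3366 genes were called, against 3658 in the main comparison. On simulated counts edgeR recovered 106 of 108 genes changed 2-fold, with 11 false calls among 14239 genes in all, for KO1 against WT. The simulated counts held only the spread within clones and no differences between clones. These numbers therefore do not say how the test does with pooled WT clones that differ.
Genes named were, off chromosome 12, the 12 highest and 12 lowest among those particular to KO1 and outside the range of all other untreated libraries; on it, Dicer1, the 6 most abundant and the 5 highest and 5 lowest relative to the chromosome; up to 4 of each list; and genes at 0 in one group; some genes that this rule names are not reported here. Bax, Mdm2, Stat2, Tarbp2, Xpo5, Spi1, Csf1r and the 4 pseudogenes were named after their values were seen. The members and lists were chosen with earlier results of these data known. A search of the genome for guide-like sites was not done, and transcripts were searched in its place. Sequences of guides came from the study's supplement. The authors' own DESeq2 comparisons were not used.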

Additional observations from a re-analysis of the deposited data

Results flagged for a closer look

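Of the 142 genes chosen by the naming rule, 7 responded to IFNG differently in KO1 than in the WT clones by the interaction term of edgeR over 24 libraries. Of all genes tested, 0.884% did so. The rule uses the untreated values, and the interaction holds the same untreated libraries. The number among the chosen genes can therefore not be read against the share over all genes. Dicer1 had an interaction log2FC of -0.29 (SE 0.0606, adjusted p = 0.013). The interferon-stimulated genes Slfn8 and Cmpk2, low in untreated KO1, had 0.58 (SE 0.0975, adjusted p = 0.00164) and 0.80 (SE 0.129, adjusted p = 0.00103), so that their log2FC against WT was -0.74 and -0.33 after IFNG. The NF-kB subunit gene Rel had 0.33 (SE 0.0746, adjusted p = 0.0217) and the polyamine gene Odc1 0.37 (SE 0.0905, adjusted p = 0.0454). Myc had -0.56 (SE 0.128, adjusted p = 0.0249), with a log2FC of -0.20 after IFNG against 0.34 untreated, a difference whose untreated call was lost without any 1 KO1 library, without 5 of the WT2 and WT3 libraries in turn, and without WT2 or WT3 as a whole. Mir6236, a microRNA entry, had 1.71 (SE 0.375, adjusted p = 0.0172).

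Single WT libraries stood away from the other 8 in 3 of the 142 genes chosen by that rule. With independent values chance meets this check in about 1 of 20 groups, so 3 genes are no excess. The WT libraries come from 3 clones, so that rate need not hold here. Rela was at 87.0 CPM in WT1 library 3 and at most 80.2 CPM in the others. Ndufa2 was at 44.9 CPM in WT1 library 1 and at most 38.3 CPM in the others. Mir7657 was at 3.67 CPM in WT3 library 3 and at most 2.66 CPM in the others.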

How the results depend on the processing

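KO1 is 1 clone, and with counts summed per clone, which leaves 1 sample against 3, 0 genes were called by edgeR in every class of genes (1372 at an unadjusted p under 0.05), and Dicer1 had a log2FC of -0.74 without passing the test. Without WT1, 7053 genes were called, 3449 higher and 3604 lower, of which 34 higher ones on chromosome 12 and 3415 higher and 3284 lower ones elsewhere. Counted without genes of chromosomes 1, 2, 6, 12, 17 and X, chosen after the data had been seen, 2116 genes were called, 1001 higher and 1115 lower, a smaller set of genes by construction. The cause of the other changes was not tested. Leaving out 1 library or clone at a time gave 2339 to 7053 calls in all, 971 to 3449 higher and 1364 to 3604 lower, with 6 to 34 higher and 228 to 320 lower on chromosome 12 and 965 to 3415 higher and 1136 to 3284 lower elsewhere. Genes particular to KO1 numbered 1046 to 2240 without 1 KO1 library or WT1, the only omissions run for this count, and 651 under 1 fit over all untreated libraries. The chromosome 12 median stayed between -0.3784 and -0.3552. The median elsewhere was -0.002874 to 0.01231 without 1 library or clone, 0.00297 with RLE factors, -0.007345 with TMM factors from the other chromosomes and 0.005389 with at least 10 counts in every library. DESeq2 called 4015 genes, and 140 of 142 named genes kept their direction and side of the threshold with it. No named gene changed sign without 1 library, and 37 lost their call without at least 1. No paired analysis was possible because the count columns carry no replicate numbers, so the fits with a replicate block were not run.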
